A study of Mus musculus with 11 samples.

Results

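Loss of *Xbp1* in hepatocytes of chow-fed mice was measured by RNA-seq in 5 of the series' 11 libraries, as the contrast of 2 *Xbp1* LKO with 3 *Xbp1* fl/fl libraries over every expressed gene. *Xbp1* LKO mice lack *Xbp1* in hepatocytes, through a Cre recombinase driven by the albumin promoter that removes exon 2, and *Xbp1* fl/fl mice carry the floxed allele without that deletion. All were adult male mice of a C57BL/6 background given standard chow and plain water for up to 6 weeks. Hepatocytes were freed by liver perfusion and purified on Percoll, and each chow library came from 1 mouse. The other 6 libraries, 3 of each genotype, came from mice fed a high fat sugar (HFS) diet and were pools of 2 mice each. The study's legend counts 3 chow-fed *Xbp1* LKO libraries, of which 2 were analysed here.

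XBP1 is a transcription factor of the unfolded protein response (UPR), which adjusts the endoplasmic reticulum (ER) to its load of secretory protein. The ER membrane sensor IRE1α, encoded by *Ern1*, splices *Xbp1* mRNA into the form that encodes the active factor, and it can also cleave other mRNAs, a process called regulated IRE1-dependent decay (RIDD). Of the other UPR sensors, PERK (*Eif2ak3*) slows translation and raises the factors ATF4 and CHOP, and ATF6 is cut to release a transcription factor. Hepatocytes secrete most plasma proteins and assemble lipoproteins, and their gene expression is graded along the liver lobule, with periportal cells rich in urea production and pericentral cells making glutamine.

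Total counts were 19191032 to 21917294 in the 5 chow libraries, and 13303 genes passed the filter on low counts. Values are given as CPM, a gene's counts scaled to a common library size with TMM factors, for *Xbp1* fl/fl libraries 1, 2 and 3 and then *Xbp1* LKO libraries 1 and 2. A gene is called changed where the quasi-likelihood test of edgeR, adjusted by Benjamini-Hochberg over all genes tested, gives a p under 0.05, written here as the edgeR adjusted p, and fold changes are on the log2 scale with their standard error (SE). Of the genes tested, 632 (4.75%) were called, 230 higher (1.73%) and 402 lower (3.02%) in *Xbp1* LKO than in *Xbp1* fl/fl hepatocytes, and 594 of them encode proteins. The fit took its spread from all 11 libraries, 6 of which are the HFS pools. With chow libraries alone 233 genes were called, 75 higher and 158 lower. The 2 groups did not overlap in 31.3% of all genes, 15.4% with both *Xbp1* LKO libraries higher and 15.9% with both lower. *Xbp1* LKO library 2 carried much of the count of 632. Without it 69 genes were called, 30 higher and 39 lower, with the lone library assumed to vary like the other groups. Without *Xbp1* fl/fl library 2 the count was 326, and it was 475, 600 and 762 without *Xbp1* fl/fl library 1, *Xbp1* fl/fl library 3 and *Xbp1* LKO library 1. The direction of the calls depended on the scaling: 36.4% of the calls were higher with TMM, and 89.5% of 3000 calls were higher when library totals were used, which moved the median of all genes by 0.33 on the log2 scale. Below, a list of genes is described by its calls and its median log2 fold change beside the all-gene median of 0.00. A gene can belong to more than 1 list, so the results of different lists are not independent of each other.

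The libraries were checked against markers of the cells they could hold. The 40 hepatocyte markers summed to 267372 to 285212 CPM in the *Xbp1* fl/fl libraries and to 165322 and 124350 CPM in the *Xbp1* LKO libraries, and many of these markers are secreted proteins described below. Sinusoidal endothelial markers were far rarer, at 113 to 265 CPM summed over 28 genes in *Xbp1* fl/fl and 88.7 and 73.8 CPM in *Xbp1* LKO, and the highest sum was in *Xbp1* fl/fl library 1. Stellate and fibroblast markers summed to 24.5 to 84.7 CPM compared to 20.2 and 22.02 CPM, and Kupffer cell markers to 190.3 to 206.6 CPM compared to 187.8 and 152.8 CPM. Of these, 18 and 21 were tested and 0 called, with medians of -1.08 and -0.47. Of the tested, 18 and 20 were negative, beside 49.7% of all genes. Calls in each marker list stand beside 4.75% of all genes called. The Kupffer sums hide an uneven spread. Relative to the *Xbp1* fl/fl mean, the list medians were 1.03, -0.54 and -0.47 in the *Xbp1* fl/fl libraries and -0.46 and 0.03 in the *Xbp1* LKO libraries. The 22 bile duct markers summed to 429 to 564 CPM compared to 480.9 and 492 CPM, most of it from genes such as *Krt8*, *Krt18*, *Anxa4* and *Tm4sf4*, whereas counts of *Krt19* and *Epcam*, which define bile duct cells, stayed between 0 and 4 in every chow library. Of 12 tested, 2, *Sox9* and *Wfdc2*, were called lower and 0 higher (median 0.05). The 20 lymphocyte markers summed to 1.85 to 6.87 CPM compared to 5.46 and 3.06 CPM, with *Cd3e* at 0 to 2 counts, and 3 were tested and 0 called (median 0.65). The 15 neutrophil and erythroid markers summed to 118 to 162 CPM compared to 150.4 and 152 CPM, nearly all of it from *Alas2*. All 5 of them that were tested had a positive log2 fold change, which for the 4 besides *Alas2* rests on less than 1 CPM in each chow library. Of the 5, 3 were higher in both *Xbp1* LKO libraries than in every *Xbp1* fl/fl library, beside 15.4% of all genes, and 0 were called. *S100a8* had 12 counts in *Xbp1* LKO library 2 and 0 to 3 in the other chow libraries. The part of these cells in the results was not tested.

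**Figure D1:**
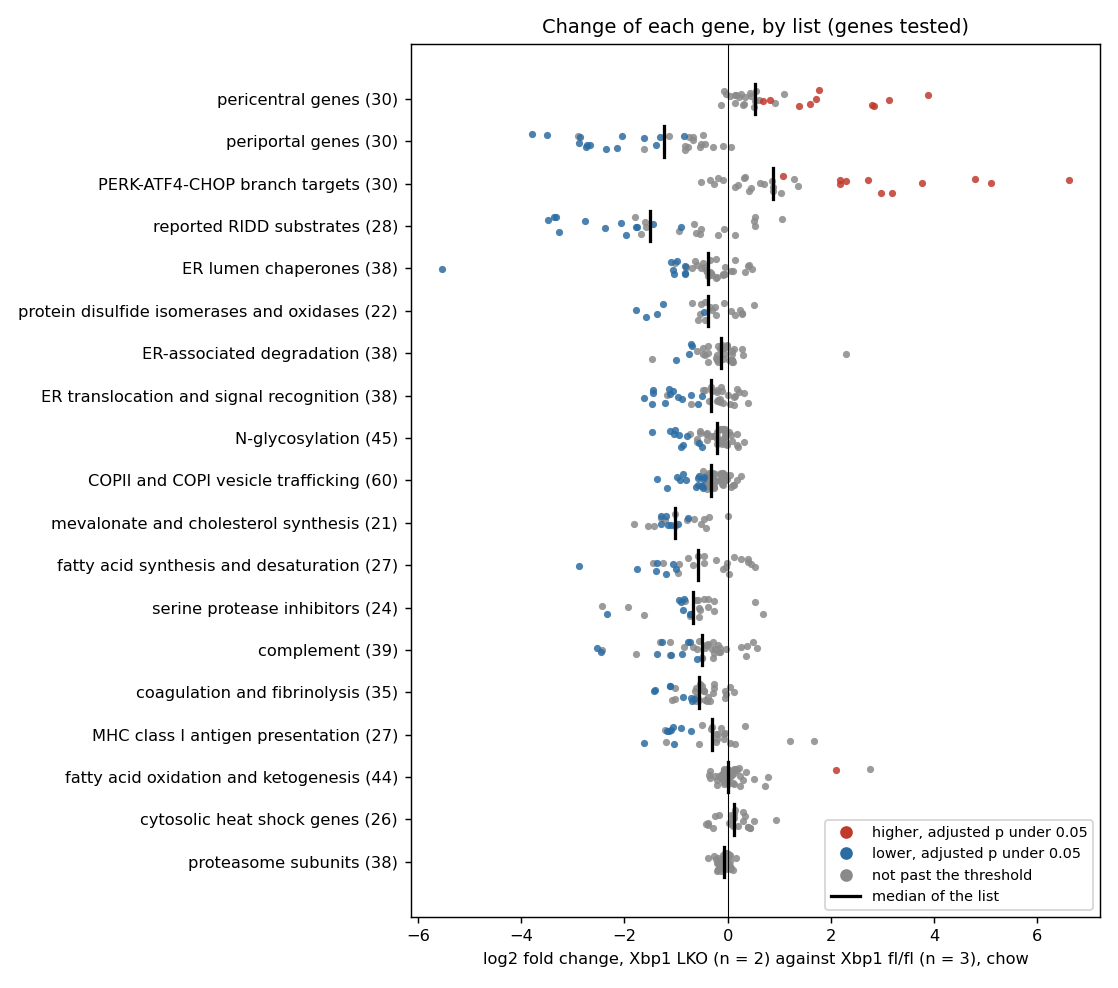
Log2 fold change (x axis) of each tested gene in 19 lists (y axis, number of genes tested in parentheses) for chow-fed *Xbp1* LKO (n = 2) compared to *Xbp1* fl/fl (n = 3) hepatocytes, with red and blue points past the threshold and black bars at the list medians. Pericentral and PERK-ATF4-CHOP genes were called in the higher direction only and periportal, RIDD, ER, mevalonate, fatty acid synthesis, protease inhibitor, complement and coagulation genes in the lower direction only, while with library totals, where the all-gene median was 0.33, the medians of ER-associated degradation (0.20), ER translocation (0.01), N-glycosylation (0.13), COPII and COPI (0.01) and MHC class I genes (0.02) were above 0.

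*Xbp1* itself lies on the plus strand of chromosome 11 from 5520659 to 5525893 (GRCm38). The exon removed in *Xbp1* LKO hepatocytes is the second of transcript Xbp1-201, at chr11:5521923-5522019, and it is coding. Its 97 bases are shown because the labels of the 2 groups rest on them.
Xbp1 exon 2: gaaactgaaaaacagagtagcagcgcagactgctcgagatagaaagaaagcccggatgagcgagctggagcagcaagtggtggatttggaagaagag
*Xbp1* was at 194, 200.3 and 221 CPM in *Xbp1* fl/fl and 95.7 and 128 CPM in *Xbp1* LKO hepatocytes (log2 fold change -0.87, SE 0.18, edgeR adjusted p = 0.018). Both *Xbp1* LKO libraries were below every *Xbp1* fl/fl library, at 1.83-fold less on average, and reads of exon 2 and of the other exons are summed in 1 count, so the level left in *Xbp1* LKO does not measure the deletion. The edgeR adjusted p was 0.092 without *Xbp1* LKO library 1 and 0.059 without *Xbp1* LKO library 2, and 0.063 with library totals.

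Of the 16 tested genes for UPR sensors and their transcription factors, 1 rose and 1, *Xbp1*, fell. The one that rose was *Ddit3*, which encodes CHOP, a factor linked to ER stress and cell death. It was at 4.52, 5.89 and 6.67 CPM in *Xbp1* fl/fl hepatocytes and at 23.6 and 132 CPM in *Xbp1* LKO hepatocytes (log2 fold change 3.77, SE 0.66, edgeR adjusted p = 0.0098), and the 2 *Xbp1* LKO libraries differed several-fold from each other. No gene of this list remained called without *Xbp1* LKO library 2. By quantitative PCR of chow-fed hepatocytes, the paper found no significant difference between the genotypes in *Chop* (*Ddit3*). The same held there for its target *Dr5* (*Tnfrsf10b*, given below). *Ern1*, the gene of IRE1α, averaged 84.3 CPM (SD 21.0, n = 3) compared to 128 CPM (SD 39.3, n = 2) (log2 fold change 0.60, SE 0.21, edgeR adjusted p = 0.14), without overlap but not past the threshold. *Atf6* measured 113, 129 and 141 CPM compared to 117 and 118 CPM (log2 fold change -0.12, SE 0.16, edgeR adjusted p = 0.73), and its groups overlapped. *Eif2ak3*, the gene of PERK, overlapped too, at 15.2, 15.7 and 12.6 CPM and 10.4 and 18.7 CPM. *Atf4* mRNA was 94.3, 84.5 and 93.1 CPM compared to 95.8 and 104 CPM (log2 fold change 0.14, SE 0.11, edgeR adjusted p = 0.54). Its protein is known to be controlled mainly by translation, which RNA counts do not measure. By western blot of chow-fed hepatocytes, the paper found more ATF4 protein in *Xbp1* LKO than in *Xbp1* fl/fl. The same held there for the phosphorylated form of eIF2α, the translation factor on which PERK acts.

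Genes for the handling of secretory proteins in the ER were examined step by step, from entry and folding to export. The lists of translocation, N-glycosylation, disulfide formation, chaperones, ER-associated degradation (ERAD) and vesicle trafficking hold 237 tested genes together, of which 54 (22.8%) were called lower and 0 higher, beside 3.02% and 1.73% of all genes. Their median was -0.28 and 192 had a negative log2 fold change, but with library totals the median was 0.05, against 0.33 for all genes, with 33 called lower and 22 higher. In 120 of these genes (50.6%) both *Xbp1* LKO libraries were below all *Xbp1* fl/fl libraries, beside 15.9% of all genes. Without *Xbp1* LKO library 1, 30 were called lower and 2 higher, and without *Xbp1* LKO library 2, 7 were called lower. The 6 lists took 2.51% to 2.60% of all counts in the *Xbp1* fl/fl libraries, 2.09% in *Xbp1* LKO library 1 and 3.19% in *Xbp1* LKO library 2.

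Proteins enter the ER through the Sec61 channel and lose their signal peptide on the way. Of 38 tested genes for this step, 13 fell and 0 rose, with a median of -0.31 (0.01 with library totals), and 2 were called without *Xbp1* LKO library 2. *Tram1*, whose protein assists the growing chain at the channel, was at 149, 156 and 169.7 CPM in *Xbp1* fl/fl and 52.6 and 50.7 CPM in *Xbp1* LKO hepatocytes (log2 fold change -1.62, SE 0.18, edgeR adjusted p = 0.0016). The channel subunit *Sec61b* was at 28.5, 24.2 and 28.9 CPM compared to 9.98 and 9.74 CPM (log2 fold change -1.46, SE 0.24, edgeR adjusted p = 0.0073). In both genes the *Xbp1* LKO libraries were close together and well below the *Xbp1* fl/fl libraries. *Sec61a1*, the pore subunit, fell (log2 fold change -1.05, SE 0.18, edgeR adjusted p = 0.0095). Signal peptidase genes fell as well, with *Sec11c* at 30.9, 28.3 and 34.1 CPM compared to 11.5 and 11.4 CPM (log2 fold change -1.44, SE 0.30, edgeR adjusted p = 0.022) and *Spcs2* at 80.8, 76.0 and 83.4 CPM compared to 31.7 and 37.3 CPM (log2 fold change -1.21, SE 0.18, edgeR adjusted p = 0.0052). *Ssr3*, a subunit of the translocon-associated complex, showed a log2 fold change of -1.11 (SE 0.17, edgeR adjusted p = 0.0053).

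The oligosaccharyltransferase, which attaches N-glycans to entering chains, accounted for the leading genes of the glycosylation list, in which 10 of 45 tested genes fell and 0 rose (median -0.21, and 0.13 with library totals). Without *Xbp1* fl/fl library 2, 5 of them were called, without *Xbp1* LKO library 1, 4, and without *Xbp1* LKO library 2, 2. *Ostc* was at 49.0, 51.8 and 59.0 CPM and 18.9 and 19.6 CPM (log2 fold change -1.47, SE 0.18, edgeR adjusted p = 0.0028). *Rpn1* was at 192, 163 and 174 CPM and 72.5 and 89.4 CPM (log2 fold change -1.13, SE 0.15, edgeR adjusted p = 0.0035), and the catalytic subunit *Stt3a* at 149, 162 and 165 CPM and 83.2 and 73.2 CPM (log2 fold change -1.02, SE 0.14, edgeR adjusted p = 0.0045). For all 3 the groups were well apart, and *Ostc* and *Rpn1* stayed past the threshold without *Xbp1* LKO library 2.

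Disulfide bonds are formed by protein disulfide isomerases and the oxidases that recharge them, and 5 of 22 such genes fell and 0 rose (median -0.39), with 1 left without *Xbp1* LKO library 2 and 1 called higher without *Xbp1* LKO library 1. *P4hb*, an abundant isomerase and a subunit of the microsomal triglyceride transfer complex, was at 2034, 2217 and 1962 CPM in *Xbp1* fl/fl and 671 and 703 CPM in *Xbp1* LKO hepatocytes (log2 fold change -1.59, SE 0.24, edgeR adjusted p = 0.0054), 3.01-fold less. *Erp44*, which retains oxidases and unassembled clients, was at 91.0, 100.3 and 97.5 CPM and 31.6 and 24.6 CPM (log2 fold change -1.77, SE 0.19, edgeR adjusted p = 0.0016) and was called whichever chow library was left out. *Txndc5* (log2 fold change -1.36, SE 0.20, edgeR adjusted p = 0.0053) and the peroxiredoxin *Prdx4* (log2 fold change -1.26, SE 0.19, edgeR adjusted p = 0.0055) fell as well. *Pdia4* was not called, at 313, 315 and 314 CPM in the *Xbp1* fl/fl libraries and 231 and 666 CPM in the *Xbp1* LKO libraries (log2 fold change 0.52, SE 0.35, edgeR adjusted p = 0.47). Its *Xbp1* LKO libraries lay on either side of the *Xbp1* fl/fl libraries.

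Among 38 ER lumen chaperones and their helpers, 8 fell and 0 rose (median -0.39, and -0.61 without *Xbp1* LKO library 2), 5 without *Xbp1* LKO library 1 and 2 without *Xbp1* LKO library 2. *Serp1*, which protects newly made membrane proteins, was at 253, 256 and 297 CPM and 113 and 137 CPM (log2 fold change -1.10, SE 0.17, edgeR adjusted p = 0.0054). *Sil1*, a nucleotide exchange factor of BiP, was at 81.9, 82.9 and 67.8 CPM and 43.1 and 44.3 CPM (log2 fold change -0.83, SE 0.15, edgeR adjusted p = 0.01), and the prolyl isomerase *Fkbp11* fell (log2 fold change -1.05, SE 0.24, edgeR adjusted p = 0.029). *Nucb2*, a calcium-binding protein, was at 10.1, 4.28 and 4.48 CPM in *Xbp1* fl/fl and 0.0853 and 0.175 CPM in *Xbp1* LKO hepatocytes (edgeR adjusted p = 0.0089), where 1 count is worth 0.0427 and 0.0437 CPM, so its fold change rests on a few counts. The main chaperones did not pass the threshold. *Hspa5*, which encodes BiP, was at 796, 1238 and 1685 CPM and 786 and 2639 CPM (log2 fold change 0.47, SE 0.47, edgeR adjusted p = 0.65), and *Hsp90b1*, which encodes GRP94, at 1171, 925 and 1234 CPM and 799.8 and 2126 CPM (log2 fold change 0.40, SE 0.33, edgeR adjusted p = 0.57). In both genes *Xbp1* LKO library 2 was above every *Xbp1* fl/fl library and *Xbp1* LKO library 1 was not, and without *Xbp1* LKO library 2 the log2 fold changes were -0.66 for *Hspa5*, -0.48 for *Hsp90b1* and -0.44 for *Pdia4*.

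**Figure D2:**
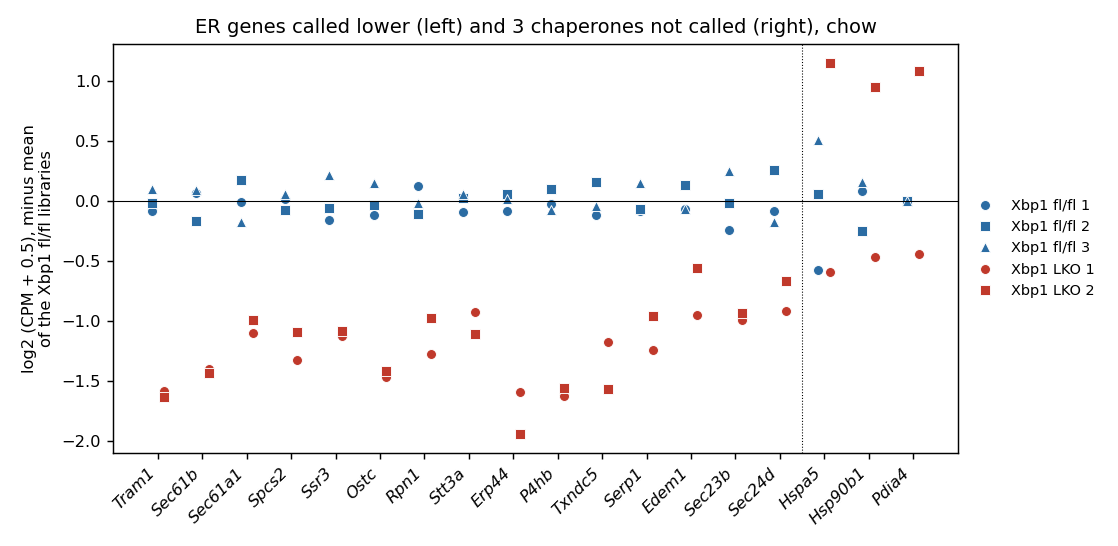
Log2(CPM + 0.5) of 18 ER genes (x axis) in each chow library, minus the mean of the *Xbp1* fl/fl libraries (y axis, log2 units), with 15 genes called lower left of the dotted line and *Hspa5*, *Hsp90b1* and *Pdia4*, not called, right of it. Both *Xbp1* LKO libraries (red) lie below all *Xbp1* fl/fl libraries (blue) in the 15 genes, also with library totals, while in the other 3 *Xbp1* LKO library 2 alone lies above them.

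Misfolded proteins leave the ER for degradation, and folded ones leave it in vesicles. Of 38 ERAD genes, 4 fell and 0 rose (median -0.13, with -0.24 in *Xbp1* LKO library 1 and -0.03 in library 2, and 0.20 with library totals), 2 were called without *Xbp1* fl/fl library 2, and 0 were called without *Xbp1* LKO library 2. They include the mannosidase-like *Edem1* at 232, 267 and 232 CPM compared to 126 and 165 CPM (log2 fold change -0.74, SE 0.16, edgeR adjusted p = 0.022), *Edem2* (log2 fold change -1.01, SE 0.19, edgeR adjusted p = 0.013) and the selenoprotein *Selenos* (log2 fold change -0.69, SE 0.17, edgeR adjusted p = 0.043). Of 60 genes of COPII and COPI vesicles, which carry cargo between ER and Golgi, 14 fell and 0 rose (median -0.32, and 0.01 with library totals). Their calls numbered 6, 5, 5 and 0 without *Xbp1* fl/fl library 1, *Xbp1* fl/fl library 2, *Xbp1* LKO library 1 and *Xbp1* LKO library 2. The coat subunit *Sec23b* was at 52.0, 60.7 and 73.3 CPM compared to 30.5 and 31.9 CPM (log2 fold change -0.99, SE 0.18, edgeR adjusted p = 0.012). The cargo receptor *Tmed3* (log2 fold change -1.38, SE 0.30, edgeR adjusted p = 0.025), the tether *Uso1* (log2 fold change -0.86, SE 0.15, edgeR adjusted p = 0.01) and the coat subunit *Sec24d* (log2 fold change -0.80, SE 0.20, edgeR adjusted p = 0.043) fell too, and in each the groups did not overlap.

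Promoters of the ER genes were searched, on both strands, for letters that UPR factors are known to recognise: the ER stress response element (ERSE, CCAAT and CCACG with any 9 bases between), ERSE-II (ATTGG and CCACG with any 1 base between) and the core of the UPR element (TGACGTGG). RefSeq promoters on GRCm38.p6, from 250 bases before to 50 after the gene start, were matched for 9934 of the 13303 genes tested and for 192 of the 237 ER genes. Of all 32851 promoters of that length, 0.119% held ERSE, 0.0365% ERSE-II and 0.676% the UPR element core. Of the 9934 tested genes, 0.171% held ERSE, 0.0906% ERSE-II and 1.01% the core in any promoter. Of the 192 ER genes, 10 held ERSE, 4 ERSE-II and 12 the core in any promoter. Of the 43 ER genes called lower, 0 held ERSE, 0 ERSE-II and 2 the core, namely *Txndc5* and *Sec24d*. All 10 with ERSE were among the genes not called. The promoters of *Txndc5* (chr13:38527865-38528164, minus strand, core at -138 to -131 from the start) and *Sec24d* (chr3:123267246-123267545, plus strand, -26 to -19) are shown as the ones in which a fallen gene and a motif meet, and that of *Hspa5* (chr2:34771840-34772139, plus strand, ERSE at -65 to -47), picked after its values were seen, as an ERSE promoter of a gene that was not called. Capitals mark the motif.
Txndc5: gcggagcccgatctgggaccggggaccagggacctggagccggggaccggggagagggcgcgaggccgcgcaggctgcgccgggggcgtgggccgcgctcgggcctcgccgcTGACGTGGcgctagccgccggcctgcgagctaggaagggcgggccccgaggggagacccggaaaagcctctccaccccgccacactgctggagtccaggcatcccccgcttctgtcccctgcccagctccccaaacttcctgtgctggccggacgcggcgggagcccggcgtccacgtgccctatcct
Sec24d: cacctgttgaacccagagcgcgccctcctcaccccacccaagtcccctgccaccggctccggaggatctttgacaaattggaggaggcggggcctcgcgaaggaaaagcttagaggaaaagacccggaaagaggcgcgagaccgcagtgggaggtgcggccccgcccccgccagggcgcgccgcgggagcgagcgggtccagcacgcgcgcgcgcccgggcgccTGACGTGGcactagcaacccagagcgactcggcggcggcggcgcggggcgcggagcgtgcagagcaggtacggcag
Hspa5: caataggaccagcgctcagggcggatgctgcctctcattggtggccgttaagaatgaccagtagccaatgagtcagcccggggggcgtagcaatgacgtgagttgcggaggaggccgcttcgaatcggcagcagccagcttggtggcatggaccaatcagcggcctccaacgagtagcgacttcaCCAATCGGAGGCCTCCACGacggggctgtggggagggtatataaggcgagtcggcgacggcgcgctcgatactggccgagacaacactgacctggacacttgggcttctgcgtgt

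A separate list holds mRNAs reported as RIDD substrates in liver and other cells. Of 28 tested, 12 (42.9%) were called lower and 0 higher, with a median of -1.51, and 3 were called without *Xbp1* LKO library 2. Without *Xbp1* fl/fl library 1 the median was -0.85. Relative to the *Xbp1* fl/fl mean, the list medians were -0.79 and -1.08 in *Xbp1* LKO libraries 1 and 2. The summed level of the list was 21676, 26480 and 24724 CPM in *Xbp1* fl/fl and 23711 and 15692 CPM in *Xbp1* LKO hepatocytes. *Xbp1* LKO library 1 thus lay within the *Xbp1* fl/fl range of that sum. This list is not independent of these samples, because the study had tabulated members of it, *Bloc1s1* among them, from these libraries, and 7 of the 12 belong to the carboxylesterase family, whose near-identical copies can share reads. *Hgsnat*, a lysosomal acetyltransferase, was at 62.3, 78.8 and 60.4 CPM in *Xbp1* fl/fl and 22.2 and 12.1 CPM in *Xbp1* LKO hepatocytes (log2 fold change -1.97, SE 0.26, edgeR adjusted p = 0.004), and remained called without *Xbp1* LKO library 2. *Tapbp*, the tapasin gene, fell (log2 fold change -0.91, SE 0.22, edgeR adjusted p = 0.043). *Bloc1s1*, a widely used RIDD reporter, was at 1.77, 1.33 and 0.996 CPM and 0.469 and 0.306 CPM (log2 fold change -1.79, SE 0.66, edgeR adjusted p = 0.16), without overlap but not past the threshold at so few counts.

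The carboxylesterases, mostly ER-resident hydrolases of lipids, esters and drugs, gave the largest falls of that list. Of 15 tested, 7 fell and 0 rose, and 0 were called without *Xbp1* LKO library 2. The list median of -0.73 was made up of -0.14 in *Xbp1* LKO library 1 and -1.58 in library 2, relative to the *Xbp1* fl/fl mean. *Ces1g* was at 229, 448 and 248 CPM in *Xbp1* fl/fl and 40.7 and 14.4 CPM in *Xbp1* LKO hepatocytes (log2 fold change -3.49, SE 0.53, edgeR adjusted p = 0.0053). The more abundant *Ces1c*, a plasma esterase in mice, was at 2721, 3870.5 and 2965 CPM and 447 and 184 CPM (log2 fold change -3.34, SE 0.57, edgeR adjusted p = 0.0087). *Ces1d*, a triglyceride hydrolase, was at 564, 1302 and 850.1 CPM and 159.8 and 27.2 CPM (log2 fold change -3.28, SE 0.66, edgeR adjusted p = 0.018). In each of these, *Xbp1* LKO library 2 was the lowest and *Xbp1* LKO library 1 lay between it and the *Xbp1* fl/fl libraries. *Ces1e* (-3.37), *Ces1f* (-2.77), *Ces1b* (-2.37) and *Ces2a* (-1.44) make up the 7, with edgeR adjusted p of 0.0096, 0.0063, 0.015 and 0.026 in that order.

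Genes listed as targets of the PERK-ATF4-CHOP branch rose, and the activity of PERK itself was not tested here. The paper names other kinases that phosphorylate eIF2α. In chow-fed *Xbp1* LKO hepatocytes its western blots showed less PERK protein, but not less phosphorylated PERK. Of 30 listed genes tested, 11 (36.7%) were called higher and 0 lower, beside 1.73% and 3.02% of all genes. The median was 0.88. The 2 *Xbp1* LKO libraries differed, with a list median 0.21 above the *Xbp1* fl/fl mean in library 1 and 1.29 above it in library 2. The number called was 7, 3 and 5 without *Xbp1* fl/fl libraries 1, 2 and 3, and 2 without *Xbp1* LKO library 2, where the median was 0.30. *Nupr1*, a small stress-induced chromatin protein (chr7:126623249-126630861), was at 0.221, 0.289 and 0.349 CPM in *Xbp1* fl/fl and 10.5 and 47.3 CPM in *Xbp1* LKO hepatocytes (log2 fold change 6.62, SE 0.93, edgeR adjusted p = 0.0045). *Atf3*, a stress-induced repressor, was at 0.496, 1.21 and 0.946 CPM and 6.53 and 43.0 CPM (log2 fold change 4.80, SE 0.72, edgeR adjusted p = 0.0052). Both remained called without *Xbp1* LKO library 2, in which their levels were the highest of the 5 libraries. *Trib3*, a pseudokinase induced by CHOP, was at 17.2, 16.0 and 15.7 CPM and 31.1 and 117 CPM (log2 fold change 2.19, SE 0.47, edgeR adjusted p = 0.023). *Fam129a* was at 0.717, 0.231 and 0.0996 CPM and 2.35 and 21.8 CPM (log2 fold change 5.11, SE 0.99, edgeR adjusted p = 0.015), a gene near the detection limit in the *Xbp1* fl/fl libraries.

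Amino acid carriers and other genes of that list moved the same way. *Slc7a5* and *Slc3a2* encode the light and heavy chain of the large neutral amino acid carrier, and were at 2.65, 0.925 and 1.29 CPM compared to 4.22 and 11.8 CPM (log2 fold change 2.30, SE 0.50, edgeR adjusted p = 0.026) and at 39.8, 43.8 and 33.9 CPM compared to 63.4 and 102 CPM (log2 fold change 1.08, SE 0.25, edgeR adjusted p = 0.032). The cationic amino acid carrier *Slc7a1* (log2 fold change 2.97, SE 0.60, edgeR adjusted p = 0.018) and the lipoprotein receptor *Vldlr* (log2 fold change 3.19, SE 0.69, edgeR adjusted p = 0.025) rose from under 1 CPM. The cell cycle inhibitor *Cdkn1a*, at 3.14, 2.72 and 1.99 CPM and 4.22 and 30.2 CPM (log2 fold change 2.72, SE 0.70, edgeR adjusted p = 0.049), and the death receptor *Tnfrsf10b* (log2 fold change 2.17, SE 0.55, edgeR adjusted p = 0.045) also belong to the list of 24 p53 and growth arrest genes, of which 4 rose and 0 fell. That list had a median of 0.59, made up of 0.00 in *Xbp1* LKO library 1 and 0.87 in library 2, and it had 0 calls without *Xbp1* fl/fl library 1 or 2, 1 without *Xbp1* fl/fl library 3, 11 without *Xbp1* LKO library 1 and 0 without *Xbp1* LKO library 2. Of 27 aminoacyl-tRNA synthetases and amino acid synthesis genes, 2 rose and 1 fell. *Asns*, which makes asparagine, was at 15.4, 17.3 and 8.71 CPM and 101 and 152 CPM (log2 fold change 3.20, SE 0.68, edgeR adjusted p = 0.022), and *Psat1*, of serine synthesis, at 0.883, 0.809 and 0.846 CPM and 5.63 and 18.5 CPM (log2 fold change 3.83, SE 0.63, edgeR adjusted p = 0.0074). The synthetase *Tars* fell (log2 fold change -0.59, SE 0.14, edgeR adjusted p = 0.037). In that list 1 gene rose without *Xbp1* fl/fl library 1, 2 or 3, 6 without *Xbp1* LKO library 1 and 0 without *Xbp1* LKO library 2.

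**Figure D3:**
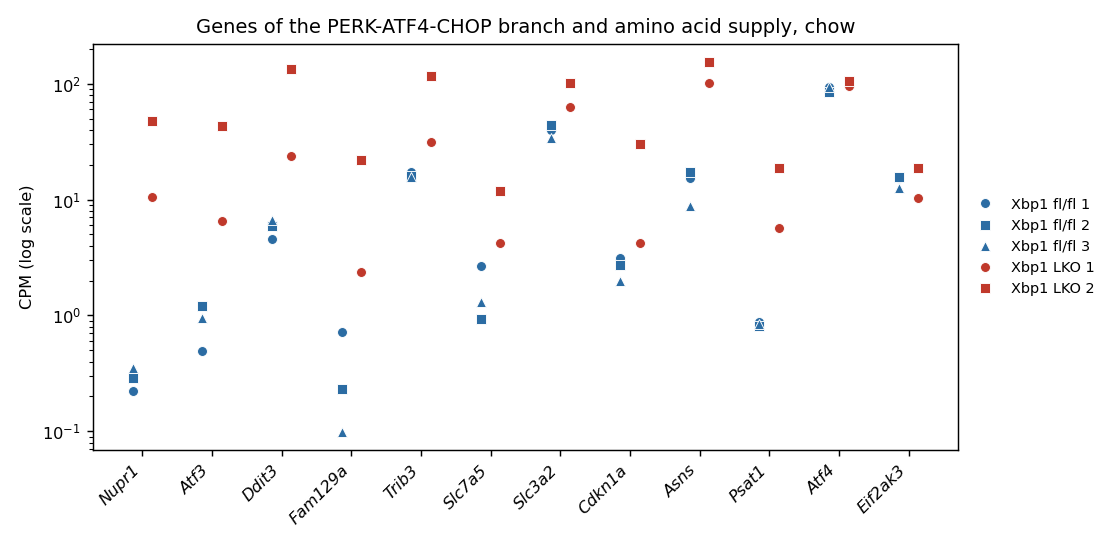
CPM (y axis, log scale) of 12 genes of the PERK branch and of amino acid supply (x axis) in each chow library, with *Xbp1* fl/fl in blue and *Xbp1* LKO in red. *Xbp1* LKO library 2 (red square) is the highest point for each gene shown, *Nupr1* is at 10.5 and 47.3 CPM in *Xbp1* LKO compared to at most 0.35 CPM in *Xbp1* fl/fl, and *Eif2ak3* overlaps.

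Genes that mark the 2 ends of the liver lobule moved in opposite directions. Of 30 tested pericentral genes, 10 (33.3%) were called higher and 0 lower (median 0.53), and of 30 periportal genes, 14 (46.7%) were called lower and 0 higher (median -1.22). Of all genes, 1.73% were called higher and 3.02% lower. Both *Xbp1* LKO libraries were above all *Xbp1* fl/fl libraries in 15 of 30 pericentral genes and below them in 21 of 30 periportal genes. The same held for 15.4% (above) and 15.9% (below) of all genes. Pericentral genes were alike in the 2 *Xbp1* LKO libraries, with list medians of 0.59 and 0.58 above the *Xbp1* fl/fl mean, and the periportal medians were -0.87 and -1.58. Calls numbered 6 pericentral genes without *Xbp1* fl/fl library 2, 6 without *Xbp1* fl/fl library 3 and 5 without *Xbp1* LKO library 2, and 9 periportal genes without *Xbp1* fl/fl library 1, 8 without *Xbp1* fl/fl library 2 and 0 without *Xbp1* LKO library 2. In bulk libraries, fewer cells of a type and less of an RNA per cell cannot be told apart. Sinusoidal endothelial markers, whose sum was lower in both *Xbp1* LKO libraries than in every *Xbp1* fl/fl library, had 0 of 27 genes called by edgeR's quasi-likelihood test, with a median of -1.31. Of the 27, 20 were at an unadjusted p under 0.05, beside 19.3% of all genes, and 13 were called by DESeq2, beside 8.49% of all genes. Their part in these differences was not tested.

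Pericentral hepatocytes take up ammonia and make glutamine, and the genes of that task led the rises. *Glul*, which encodes glutamine synthetase (chr1:153899944-153909723), was at 389.7, 183 and 243 CPM in *Xbp1* fl/fl and 1799.7 and 2956 CPM in *Xbp1* LKO hepatocytes (log2 fold change 3.13, SE 0.30, edgeR adjusted p = 0.0013), 8.74-fold higher. The ammonium channel *Rhbg* was at 2.04, 1.04 and 0.946 CPM and 13.1 and 26.6 CPM (log2 fold change 3.88, SE 0.38, edgeR adjusted p = 0.0013). The glutamate carrier *Slc1a2* was at 161, 60.6 and 126 CPM and 724 and 923 CPM (log2 fold change 2.83, SE 0.31, edgeR adjusted p = 0.0016). In each of these genes the lowest *Xbp1* LKO library was several times the highest *Xbp1* fl/fl library. *Oat*, ornithine aminotransferase, was at 1333, 968 and 1168 CPM and 3848 and 3696 CPM (log2 fold change 1.71, SE 0.23, edgeR adjusted p = 0.0042). *Lgr5*, a receptor that strengthens Wnt signals, was at 4.85, 2.25 and 4.08 CPM and 19.6 and 32.7 CPM (log2 fold change 2.80, SE 0.30, edgeR adjusted p = 0.0016). *Glul*, *Rhbg*, *Slc1a2*, *Oat* and *Lgr5* are the 5 pericentral genes called without *Xbp1* LKO library 2.

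The other pericentral genes that rose include regulators. *Axin2*, a Wnt target, was at 11.6, 3.64 and 8.27 CPM and 21.4 and 26.0 CPM (log2 fold change 1.59, SE 0.33, edgeR adjusted p = 0.02), and *Tbx3*, a transcription factor, at 34.8, 15.1 and 33.3 CPM and 53.5 and 91.0 CPM (log2 fold change 1.38, SE 0.34, edgeR adjusted p = 0.044). The amino acid carrier *Slc1a4* (log2 fold change 1.77, SE 0.42, edgeR adjusted p = 0.035) and the aryl hydrocarbon receptor *Ahr* (log2 fold change 0.83, SE 0.20, edgeR adjusted p = 0.041) rose as well. *Cyp2e1*, a pericentral P450 expressed over a wide part of the lobule, was at 9751, 11688 and 10978 CPM and 12739 and 7716 CPM (log2 fold change -0.08, SE 0.23, edgeR adjusted p = 0.89), and *Cyp7a1*, the first enzyme of bile acid synthesis, at 257, 34.3 and 143 CPM and 356 and 192 CPM (log2 fold change 0.92, SE 0.71, edgeR adjusted p = 0.53). Both overlapped between the groups.

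Among periportal genes, *Ctsc*, a lysosomal protease, was at 82.0, 72.8 and 69.3 CPM in *Xbp1* fl/fl and 5.16 and 5.64 CPM in *Xbp1* LKO hepatocytes (log2 fold change -3.79, SE 0.55, edgeR adjusted p = 0.0045), 13.8-fold less. *Cyp2f2*, a classical periportal P450, was at 1096, 1869 and 1502 CPM and 197 and 66.8 CPM (log2 fold change -3.49, SE 0.54, edgeR adjusted p = 0.0056). The junction protein E-cadherin, *Cdh1*, was at 25.9, 32.6 and 22.8 CPM and 5.76 and 4.85 CPM (log2 fold change -2.35, SE 0.41, edgeR adjusted p = 0.0098). For *Ctsc* and *Cdh1* the *Xbp1* LKO libraries were close together, and for *Cyp2f2* library 2 was the lower. *Hsd17b13*, a lipid droplet dehydrogenase (log2 fold change -2.87, SE 0.52, edgeR adjusted p = 0.011), and *Etnppl*, a phospholyase (log2 fold change -2.67, SE 0.60, edgeR adjusted p = 0.029), fell as well.

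Many periportal genes serve the breakdown of amino acids and urea production, and in the list of 48 tested genes of these pathways 10 fell and 1, *Glul*, rose (median -0.30, -0.11 without *Xbp1* LKO library 2 and 0.02 with library totals). The genes that fell numbered 5 without *Xbp1* fl/fl library 1, 4 without *Xbp1* fl/fl library 2 and 0 without *Xbp1* LKO library 2. *Hal* and *Uroc1* act in succession on histidine, and were at 654, 605 and 379.9 CPM compared to 123 and 39.2 CPM (log2 fold change -2.75, SE 0.49, edgeR adjusted p = 0.011) and at 549, 733 and 489 CPM compared to 272 and 112 CPM (log2 fold change -1.62, SE 0.38, edgeR adjusted p = 0.035). The serine dehydratase *Sds* was at 189, 107 and 151 CPM and 32.3 and 8.78 CPM (log2 fold change -2.86, SE 0.58, edgeR adjusted p = 0.019), and its homologue *Sdsl* fell too (log2 fold change -2.73, SE 0.42, edgeR adjusted p = 0.0056). Glutaminase, *Gls2*, which opens glutamine for urea production, was at 581, 745 and 478 CPM and 220.1 and 72.0 CPM (log2 fold change -2.04, SE 0.46, edgeR adjusted p = 0.029), opposite to *Glul*. *Gldc*, of glycine cleavage, fell (log2 fold change -1.31, SE 0.31, edgeR adjusted p = 0.037). Within the urea cycle, *Arg1* was at 2468, 2213 and 2203 CPM and 1139 and 602 CPM (log2 fold change -1.40, SE 0.34, edgeR adjusted p = 0.04). *Cps1* (7339, 8589 and 6399.5 CPM and 6562 and 2848 CPM, edgeR adjusted p = 0.44) and *Ass1* (1670.5, 1717 and 908 CPM and 1129 and 554 CPM, edgeR adjusted p = 0.35) overlapped between the groups. *Pck1*, the periportal enzyme of gluconeogenesis, did not pass the threshold (log2 fold change -0.44, SE 0.36, edgeR adjusted p = 0.56).

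**Figure D4:**
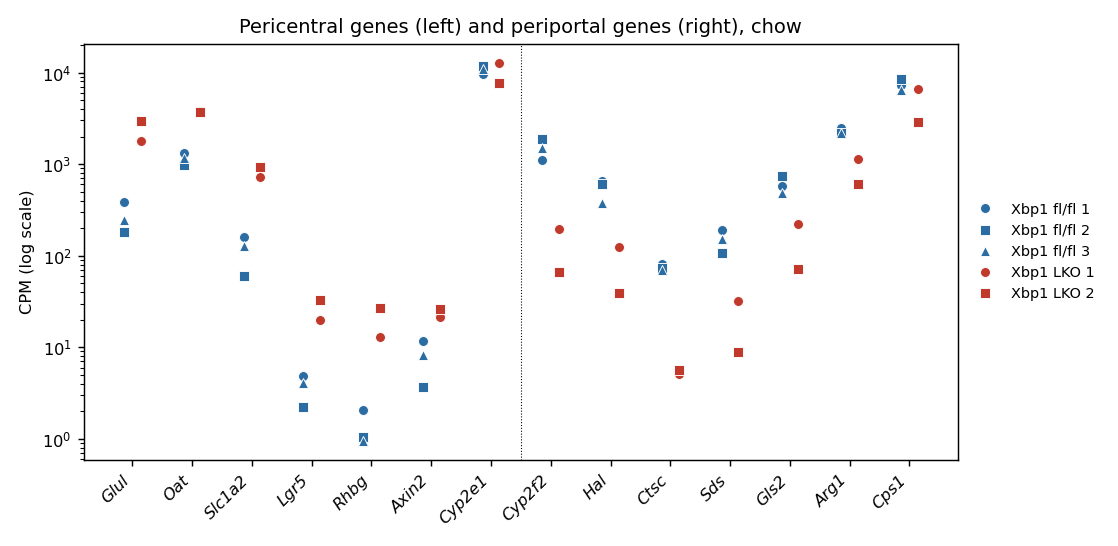
CPM (y axis, log scale) of 7 pericentral genes (left of the dotted line) and 7 periportal genes (right of it) in each chow library, with *Xbp1* fl/fl in blue and *Xbp1* LKO in red. *Glul*, *Oat*, *Slc1a2*, *Lgr5*, *Rhbg* and *Axin2* lie above and *Cyp2f2*, *Hal*, *Ctsc*, *Sds*, *Gls2* and *Arg1* below their *Xbp1* fl/fl libraries in both *Xbp1* LKO libraries, also with library totals, while *Cyp2e1* and *Cps1* overlap.

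Genes for plasma proteins made by hepatocytes were examined by class. The lists of carriers, protease inhibitors, complement, coagulation, acute phase and apolipoprotein genes hold 167 tested genes, of which 34 (20.4%) were called lower and 2 (1.20%) higher, beside 3.02% and 1.73% of all genes (median -0.49). Without *Xbp1* fl/fl library 2, 18 were called lower, and without *Xbp1* LKO library 2, 2. Together they gave 33.5%, 32.8% and 32.9% of all counts in the *Xbp1* fl/fl libraries and 23.3% and 22.4% in the *Xbp1* LKO libraries. *Alb* alone was at 8.06%, 9.97% and 10.9% of counts compared to 3.72% and 1.67% (log2 fold change -2.14, SE 0.38, edgeR adjusted p = 0.011), and its promoter drives the Cre recombinase in these mice. Of the 50 most abundant genes, 10 were called lower and 0 higher, with a median of -0.58.

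**Figure D5:**
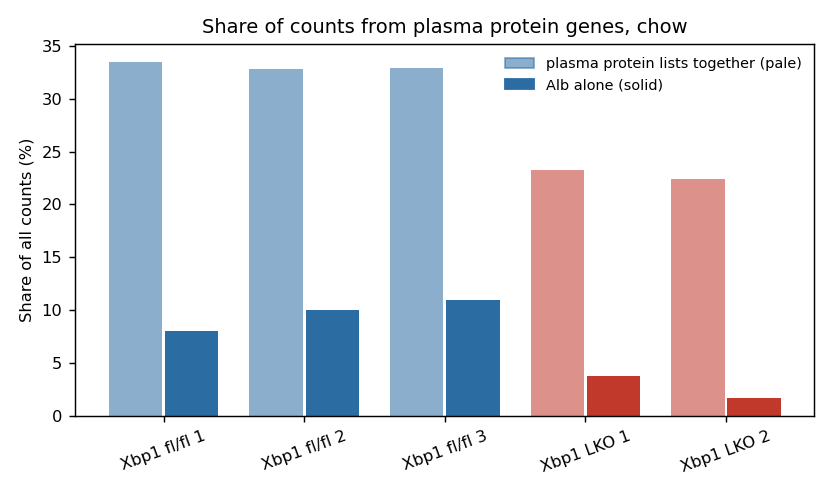
Share of all counts (y axis, percent) from the plasma protein lists together (pale bars) and from *Alb* alone (solid bars) in each chow library (x axis), 1 mouse per bar. The lists take 32.8% to 33.5% in *Xbp1* fl/fl (blue) and 22.4% to 23.3% in *Xbp1* LKO (red), and *Alb* is lowest in *Xbp1* LKO library 2.

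Among these proteins, complement fell in 9 of 39 tested genes (median -0.49, and -0.31 without *Xbp1* fl/fl library 1), in 5 without *Xbp1* LKO library 1 and in 1 without *Xbp1* LKO library 2. That one was *Hc*, which encodes complement C5, at 1673, 1828 and 1439.9 CPM in *Xbp1* fl/fl and 258 and 347 CPM in *Xbp1* LKO hepatocytes (log2 fold change -2.45, SE 0.33, edgeR adjusted p = 0.0042), 5.45-fold less. *C9*, which completes the membrane attack complex, was at 933, 798 and 1041 CPM and 401 and 317 CPM (log2 fold change -1.36, SE 0.28, edgeR adjusted p = 0.019). Of 35 coagulation genes, 8 fell (median -0.55), 4 without *Xbp1* fl/fl library 2 and 0 without *Xbp1* LKO library 2. The anticoagulant protein C gene, *Proc*, was at 594, 708 and 645 CPM and 286 and 195 CPM (log2 fold change -1.43, SE 0.23, edgeR adjusted p = 0.006), and prothrombin, *F2*, was 1.82-fold less (log2 fold change -0.86, SE 0.18, edgeR adjusted p = 0.024). The libraries of the 2 groups did not overlap in either gene. Of 24 serine protease inhibitors, 7 fell (median -0.67), 3 and 4 without *Xbp1* fl/fl libraries 2 and 3 and 0 without *Xbp1* LKO library 2. They include *Serpina1a* (log2 fold change -0.95, SE 0.19, edgeR adjusted p = 0.016) and *Serpina1c* (log2 fold change -0.84, SE 0.21, edgeR adjusted p = 0.045), antitrypsin genes whose near-identical copies can share reads.

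Of 30 carrier proteins, 4 fell and 1 rose (median -0.47, and -0.28 without *Xbp1* fl/fl library 1), and 2 fell without *Xbp1* fl/fl library 2 and 0 were called without *Xbp1* LKO library 2. The lipid-binding *Azgp1* was at 2000.3, 2158 and 2173 CPM and 720.3 and 565 CPM (log2 fold change -1.72, SE 0.24, edgeR adjusted p = 0.0045), and the selenium carrier *Selenop* fell (log2 fold change -0.70, SE 0.17, edgeR adjusted p = 0.044). *Ttr*, which carries thyroxine and retinol-binding protein, did not pass the threshold (log2 fold change -0.89, SE 0.27, edgeR adjusted p = 0.09). *Serpina7*, the thyroxine-binding globulin, went the other way, at 92.1, 16.9 and 43.5 CPM in *Xbp1* fl/fl and 285 and 691 CPM in *Xbp1* LKO hepatocytes (log2 fold change 3.26, SE 0.57, edgeR adjusted p = 0.0098). Of 30 genes for apolipoproteins and lipoprotein assembly, 6 fell and 1, *Vldlr*, rose (median -0.40, and -0.65 without *Xbp1* LKO library 1). The genes that fell numbered 3 without *Xbp1* fl/fl library 1, 3 without *Xbp1* fl/fl library 2 and 1 without *Xbp1* LKO library 2. *Apon* (log2 fold change -1.54, SE 0.26, edgeR adjusted p = 0.0082) and the phospholipid transfer protein *Pltp* (log2 fold change -1.59, SE 0.39, edgeR adjusted p = 0.041) were among those that fell, and *Apob*, the structural protein of VLDL, was not called (log2 fold change -0.46, SE 0.20, edgeR adjusted p = 0.23). Of 28 acute phase genes, 1 fell and 0 rose (median -0.13, from -0.73 without *Xbp1* LKO library 2 to 0.04 without *Xbp1* fl/fl library 1), and 0 fell without *Xbp1* fl/fl library 1, *Xbp1* fl/fl library 2 or either *Xbp1* LKO library. Of 20 major urinary protein genes, whose near-identical copies can share reads, 2 fell, *Mup3* among them (log2 fold change -1.51, SE 0.33, edgeR adjusted p = 0.025), and 0 fell without *Xbp1* fl/fl library 2, *Xbp1* fl/fl library 3 or *Xbp1* LKO library 2.

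Lists of cholesterol, fatty acid, and triglyceride and phospholipid synthesis hold 81 tested genes, of which 16 (19.8%) were called lower and 0 higher, beside 3.02% and 1.73% of all genes (median -0.40). Without *Xbp1* LKO library 2, 1 was called lower and the median was -0.25. With library totals 18 were called lower and 11 higher. Of 21 tested genes of the mevalonate pathway to cholesterol, 7 were called lower and 0 higher (median -1.03), with 3 called without *Xbp1* fl/fl library 2, 11 without *Xbp1* fl/fl library 3 and 0 without *Xbp1* LKO library 2. *Hmgcs1*, which opens the pathway, was at 339, 199 and 145 CPM and 93.3 and 91.4 CPM (log2 fold change -1.30, SE 0.28, edgeR adjusted p = 0.024). *Lss*, which closes the sterol ring (log2 fold change -1.16, SE 0.24, edgeR adjusted p = 0.021), and *Sc5d*, a late desaturase (log2 fold change -0.96, SE 0.18, edgeR adjusted p = 0.012), fell. Among 18 regulators of this pathway, 3 fell and 0 rose (median -0.54, and -0.24 without *Xbp1* fl/fl library 1), and 0 were called without *Xbp1* fl/fl library 1, *Xbp1* fl/fl library 2 or *Xbp1* LKO library 2. *Insig1*, an ER retention factor and a target of SREBP, was at 244, 204 and 213 CPM and 98.0 and 72.0 CPM (log2 fold change -1.37, SE 0.29, edgeR adjusted p = 0.023). *Srebf1*, which encodes SREBP-1, was at 318, 260.1 and 162 CPM and 147 and 52.4 CPM (log2 fold change -1.31, SE 0.48, edgeR adjusted p = 0.15).

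Of 27 genes of fatty acid synthesis and desaturation, 7 fell and 0 rose (median -0.58, with -0.24 in *Xbp1* LKO library 1 and -0.83 in library 2), 11 fell without *Xbp1* LKO library 1 and 1 without *Xbp1* LKO library 2. *Scd1*, the main desaturase of liver, was at 8541, 5564 and 6259 CPM in *Xbp1* fl/fl and 1493 and 349.9 CPM in *Xbp1* LKO hepatocytes (log2 fold change -2.88, SE 0.56, edgeR adjusted p = 0.015), 7.37-fold less. *Acly*, which supplies acetyl-CoA, was at 339.8, 427 and 365 CPM and 156 and 68.6 CPM (log2 fold change -1.75, SE 0.31, edgeR adjusted p = 0.01), and fatty acid synthase, *Fasn*, at 464, 375 and 402 CPM and 229.9 and 130.2 CPM (log2 fold change -1.20, SE 0.26, edgeR adjusted p = 0.024). In all 3, *Xbp1* LKO library 2 was the lowest. *Elovl5* (log2 fold change -1.39, SE 0.27, edgeR adjusted p = 0.015) and *Acss2* (log2 fold change -1.36, SE 0.25, edgeR adjusted p = 0.012) fell. Of 33 genes for triglyceride and phospholipid synthesis, 2 fell and 0 rose (median -0.07, and 0.26 with library totals), 0 without *Xbp1* LKO library 2, with *Dgat2*, which closes triglyceride synthesis, at 689.6, 814 and 645 CPM and 296 and 162 CPM (log2 fold change -1.64, SE 0.27, edgeR adjusted p = 0.0073). Fatty acid oxidation and ketogenesis had 1 of 44 genes called higher and 0 lower (median 0.00). Of 33 bile acid genes, 1 rose and 2 fell, with the acyl-CoA synthetase *Slc27a5* among the latter (log2 fold change -1.01, SE 0.22, edgeR adjusted p = 0.023).

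Genes of antigen presentation by MHC class I, whose heavy chains are folded in the ER, fell in 8 of 27 and rose in 0 (median -0.31, -0.52 without *Xbp1* LKO library 2 and 0.02 with library totals). The calls numbered 4 without *Xbp1* fl/fl library 2, 5 without *Xbp1* LKO library 1 and 0 without *Xbp1* LKO library 2. *B2m*, the light chain, was at 1664, 1919.7 and 1765 CPM and 1014 and 722 CPM (log2 fold change -1.04, SE 0.18, edgeR adjusted p = 0.01). *H2-K1*, a classical heavy chain, was at 1563, 1605 and 1240.1 CPM and 954 and 852 CPM (log2 fold change -0.70, SE 0.17, edgeR adjusted p = 0.036), and *H2-T22* fell (log2 fold change -1.05, SE 0.16, edgeR adjusted p = 0.0053), although heavy chain genes resemble each other and can share reads. Of 53 interferon-stimulated genes, 4 fell and 0 rose (median -0.45, and -0.22 without *Xbp1* fl/fl library 1), with *Bst2* among them (log2 fold change -0.52, SE 0.13, edgeR adjusted p = 0.04). Those calls numbered 1 without *Xbp1* fl/fl library 1, 1 without *Xbp1* fl/fl library 2 and 0 without *Xbp1* LKO library 2. Kupffer and endothelial cells express these genes too, and the part of their markers, given above, was not tested.

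Among genes past the threshold with at least 5 CPM on average and no overlap between the groups, the 12 largest rises and the 12 largest falls were taken whatever list they belong to. The rises include *Nupr1*, *Fam129a*, *Atf3*, *Rhbg*, *Psat1*, *Ddit3* and *Serpina7*, described above. The largest remaining rise was *Meg3*, a maternally expressed noncoding RNA of the imprinted *Dlk1-Dio3* region (chr12:109541001-109571726), at 0.772, 0.520 and 0.797 CPM in *Xbp1* fl/fl and 60.5 and 49.4 CPM in *Xbp1* LKO hepatocytes (log2 fold change 6.28, SE 0.69, edgeR adjusted p = 0.0016). *Rian*, a noncoding RNA of the same region, was at 1.21, 0.578 and 0.149 CPM and 32.0 and 23.2 CPM (log2 fold change 5.43, SE 0.90, edgeR adjusted p = 0.0077). The 2 *Xbp1* LKO libraries were alike in these genes, and both genes were called without *Xbp1* LKO library 2. Caveolin, *Cav1*, was at 1.77, 0.520 and 0.747 CPM and 30.0 and 34.4 CPM (log2 fold change 4.99, SE 0.65, edgeR adjusted p = 0.0035). *Arhgef2*, a guanine nucleotide exchange factor, was at 0.662, 0.231 and 0.299 CPM and 3.41 and 25.3 CPM (log2 fold change 5.16, SE 0.85, edgeR adjusted p = 0.0077), with the 2 *Xbp1* LKO libraries far apart. The organic cation carrier *Slc22a3* was at 3.48, 1.91 and 2.14 CPM and 24.3 and 39.8 CPM (log2 fold change 3.67, SE 0.33, edgeR adjusted p = 0.0013).

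The largest fall among them was *Fgfr2*, a receptor of fibroblast growth factors, at 20.2, 30.6 and 36.9 CPM in *Xbp1* fl/fl and 1.92 and 0.961 CPM in *Xbp1* LKO hepatocytes (log2 fold change -4.34, SE 0.47, edgeR adjusted p = 0.0016). It remained called without *Xbp1* LKO library 2. The prostatic acid phosphatase *Acpp* was at 31.2, 15.0 and 5.68 CPM and 1.49 and 0.830 CPM (log2 fold change -3.88, SE 0.95, edgeR adjusted p = 0.042), the exchange factor *Rasgef1b* at 15.1, 12.1 and 13.1 CPM and 1.49 and 1.22 CPM (log2 fold change -3.30, SE 0.44, edgeR adjusted p = 0.0036) and *BC049987* at 16.9, 23.1 and 18.8 CPM and 2.09 and 2.32 CPM (log2 fold change -3.15, SE 0.60, edgeR adjusted p = 0.014). *Acpp* varied severalfold within *Xbp1* fl/fl libraries, and *Rasgef1b* and *BC049987* did not. *Cryl1* (log2 fold change -3.06, SE 0.47, edgeR adjusted p = 0.0056) and the mitochondrial aldehyde dehydrogenase *Aldh1b1* (log2 fold change -2.97, SE 0.45, edgeR adjusted p = 0.0053) fell too, and the other falls of this size were the *Ces1* genes, *Ctsc* and *Cyp2f2* described above.

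In lists of other pathways 0 to 5 genes each were called. The calls were 8.11% to 11.8% of the P450, hepatokine, hepatocyte transcription factor, AP-1 and BCL2 family lists, beside 4.75% of all genes, and at most 5.56% of the rest. Cytosolic heat shock genes (26) and proteasome subunits (38) had 0 called in edgeR's test, with 6 and 0 at an unadjusted p under 0.05, beside 19.3% of all genes, and 1 and 0 called by DESeq2, beside 8.49%. Their medians were 0.11 and -0.07, the latter 0.26 with library totals. Of 36 NRF2 target genes, 1 rose and 1, the glutathione transferase *Gstp1*, fell (log2 fold change -1.25, SE 0.25, edgeR adjusted p = 0.018). Of 77 cytosolic ribosomal protein genes, 1 was called (median 0.12), of 74 nuclear genes of oxidative phosphorylation, 2 (median -0.16), and of 40 autophagy genes, 1 (median 0.02). Without overlap, 28 oxidative phosphorylation genes (37.8%) were lower in *Xbp1* LKO, beside 15.9% of all genes, and 2 were higher. In the same way 19 ribosomal protein genes (24.7%) were higher, beside 15.4% of all genes, and 3 were lower. Of 37 genes of the BCL2 family and apoptosis, 1 rose and 2 fell. Among 40 hepatocyte transcription factors, 3 rose and 1 fell, and *Hnf4a*, a master regulator of hepatocyte genes, was at 807, 868 and 905 CPM and 821 and 808 CPM (log2 fold change -0.08, SE 0.14, edgeR adjusted p = 0.82). Of 31 AP-1 and immediate early genes, 2 rose and 1 fell, and *Myc* was at 4.96, 6.18 and 6.57 CPM and 53.2 and 42.6 CPM (log2 fold change 3.02, SE 0.77, edgeR adjusted p = 0.049). Of 23 iron genes, 1 fell, *Tmprss6*, the protease that holds down hepcidin, at 660.4, 787 and 614 CPM and 294 and 225 CPM (log2 fold change -1.40, SE 0.20, edgeR adjusted p = 0.0045). The only glucose metabolism gene called of 37 was *Hk2*, a hexokinase that normal hepatocytes barely express, at 0.110, 0.0578 and 0 CPM and 1.37 and 2.05 CPM (edgeR adjusted p = 0.006). Of 43 P450 genes of families 1 to 3, 2 rose and 3 fell, of 34 hepatokines and growth factors, 2 and 2, and of 48 conjugation enzymes, 0 and 1. Lipid droplet (26) and NF-κB (40) genes had 1 each that fell, and cell cycle genes (41) 1 that rose. The cell cycle median was -0.33, and 29 of those genes (70.7%) had a negative log2 fold change, beside 49.7% of all genes. Without *Xbp1* LKO library 2, calls among the lists of this paragraph remained for 1 AP-1, 1 autophagy and 2 hepatokine genes.

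The same contrast in HFS-fed mice, with other animals in pools, called 543 genes (4.08%), 256 higher (1.92%) and 287 lower (2.16%). Of the 632 genes called on chow, 276 were called there as well, which is 43.7% of the chow calls and 50.8% of the HFS calls, and 603 had the same sign. The median size of the log2 fold change of the 632 was 1.16 on chow, where they were chosen, and 0.78 on the HFS diet. The ER lists together had 54 genes lower on chow and 36 on the HFS diet (medians -0.28 and -0.29). Pericentral genes had 10 and 10 higher (0.53 and 0.58), and periportal genes 14 and 7 lower (-1.22 and -0.92). RIDD substrates had 12 and 10 lower (-1.51 and -0.80), and genes of the PERK-ATF4-CHOP list 11 and 3 higher (0.88 and 0.80). The mevalonate list had 7 lower on chow and 1 on the HFS diet (-1.03 and -0.32). *Glul* had a log2 fold change of 2.74 on the HFS diet, *Cyp2f2* of -2.28, *Ddit3* of 2.50 and *P4hb* of -1.17. The difference between the diets was tested as an interaction, which called 0 genes (0.0%) in edgeR's quasi-likelihood test (816 at an unadjusted p under 0.05, 6.13%) and 29 in DESeq2 (0.218%). A smaller number of calls on 1 diet was therefore not shown to be a difference between diets.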

How the data were processed

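Hepatocyte RNA of 5 chow-fed mice and 6 HFS pools was sequenced. The authors deposited whole-number read counts per Ensembl gene for each library, not normalized or filtered. The submitters' processing notes name cutadapt 1.13, STAR, HTSeq 0.6.1p1, DESeq2 and mm10, whereas the paper describes pseudoalignment with kallisto and import with tximport, and which of these made the counts is not given in the sources used here. The labels and the paper also name different versions of the library kit. Of 54232 gene identifiers, 54079 were named with GENCODE vM21 (GRCm38). The 37 mitochondrial genes are at 0 in every library and could not be compared. Total counts were 19191032 to 23888401, and a chi-square test between replicate chow libraries gave 54.3 to 102 per degree of freedom, so the spread between mice exceeded counting error and counting intervals are not given.

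Groups were taken from the sample labels, and 1 chow-fed *Xbp1* LKO library carries 2 different replicate numbers in its records. Counts were scaled by TMM and turned into CPM with edgeR 4.0.16 (R 4.3.3) after filterByExpr at a minimum count of 10. The quasi-likelihood fit had 1 factor with 4 levels, used all 11 libraries and had no block. P-values measure the spread between these mice and pools. Calls used Benjamini-Hochberg adjustment at 0.05. Same-numbered chow libraries did not deviate together, with correlations of -0.20 and -0.05.

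Genes named are the UPR sensors, *Xbp1* and *Alb*, the 12 largest rises and falls among called genes with a mean of at least 5 CPM on chow and no overlap (no predicted or Riken names), up to 5 called members with the smallest p in each list, key members fixed with the lists, and genes whose promoters are printed. Not all of them are printed, some are not reported here, and some others were added after their values were seen. The members and lists were chosen with earlier results of these data known. A part of the rule that needed protein sequences was not applied. Promoters are RefSeq sequences on GRCm38.p6.

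Alternatives were DESeq2 1.42.0, RLE size factors, library totals, totals without the 100 most abundant genes, other filters, chow libraries alone, replicate blocks, a minimum of 1.5-fold, and each chow library left out in turn. Counts were also simulated with 100 2-fold and 100 4-fold changes, as many up as down. Each gene had the same spread in every group, estimated from all 11 libraries. With 12917 genes tested, edgeR recovered 55% of 2-fold and 84% of 4-fold changes with 6 false calls among 12719 unchanged genes. The changes in the real contrast were not balanced in this way, so the false calls do not measure its error rate. Quantitative PCR, histology and protein data were not analysed here.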

Additional observations from a re-analysis of the deposited data

Results flagged for a closer look

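*Hmgcs1*, which opens the mevalonate pathway, moved in opposite directions with genotype on the 2 diets, with no overlap on either. On chow it was at 339, 199 and 145 CPM in *Xbp1* fl/fl and 93.3 and 91.4 CPM in *Xbp1* LKO hepatocytes, and on the HFS diet at 37.8, 33.6 and 44.3 CPM and 57.3, 58.1 and 55.1 CPM. The difference between the 2 genotype effects was -1.86 on the log2 scale (SE 0.37), with an unadjusted p of 0.00035 and an edgeR adjusted p = 0.60 over all 13303 genes, so it did not pass the threshold. Of 21 mevalonate genes tested, 10 had an unadjusted interaction p under 0.05, beside 6.13% of all genes.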

How the results depend on the processing

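The 632 calls (230 higher, 402 lower) became 1130 (422, 708) with DESeq2, 3000 (2685 higher) with library totals, 1507 (676, 831) without a filter on low counts, 233 (75, 158) with chow libraries alone and 137 (49, 88) against a minimum of 1.5-fold. Higher calls were 469 with totals without the 100 most abundant genes. With the replicate number as a block 455 were called, 146 higher and 309 lower, of which 407 were shared, and 488 with the other numbering of the chow-fed *Xbp1* LKO library. Leaving out each chow library gave 69 to 762 calls, 30 to 341 higher and 39 to 421 lower. RLE size factors (636) and a filter of 1 CPM (633) moved the count little. *Xbp1* (-0.87) kept its direction throughout and missed the threshold with library totals (-0.54, edgeR adjusted p = 0.063), chow libraries alone (-0.88, 0.062), the replicate block (-0.85, 0.054) and the 1.5-fold minimum (-0.87, 0.39), and ranged from -1.10 to -0.68 when each chow library was left out. The interaction called 29 genes with DESeq2 and 269 without the filter. Of 124 called genes named here besides *Xbp1*, 124 stayed called with DESeq2, 112 with library totals, 72 with chow libraries alone, 104 with the block, 84 to 103 without one of the other chow libraries and 23 without *Xbp1* LKO library 2. Signs turned in genes that were not called. With library totals *Atf6* was at 0.20, *Eif2ak3* at 0.34, *Cyp2e1* at 0.23 and *Hnf4a* at 0.25, and with totals without the 100 most abundant genes *Eif2ak3* was at 0.13, *Cyp2e1* at 0.041 and *Hnf4a* at 0.045. *Eif2ak3* was at 0.024 without a filter. With each chow library left out, *Eif2ak3* ranged from -0.49 to 0.36, *Cyp2e1* from -0.49 to 0.24, *Hspa5* from -0.66 to 1.09, *Hsp90b1* from -0.48 to 0.94 and *Pdia4* from -0.44 to 1.09. The causes of these changes were not tested. With 2 *Xbp1* LKO mice, and 55% of simulated 2-fold changes recovered, a gene not called is not shown to be unchanged.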

Other observations

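Some called genes outside the lists, or not described above, are given by their values, and were chosen after those values were seen. *Notum*, a secreted Wnt deacylase, was at 35.8, 29.5 and 29.0 CPM in *Xbp1* fl/fl and 61.4 and 52.6 CPM in *Xbp1* LKO hepatocytes on chow (log2 fold change 0.86, SE 0.17, edgeR adjusted p = 0.016). The Wnt target *Sp5* was at 1.60, 0.405 and 1.34 CPM and 5.503 and 8.83 CPM (log2 fold change 2.67, SE 0.47, edgeR adjusted p = 0.0099), and *Nkd1*, an inhibitor of that pathway, at 1.05, 0.231 and 0.498 CPM and 2.13 and 2.45 CPM (log2 fold change 1.94, SE 0.44, edgeR adjusted p = 0.031). The ligand *Ihh* was at 1.32, 0.636 and 0.647 CPM and 4.99 and 4.63 CPM (log2 fold change 2.46, SE 0.38, edgeR adjusted p = 0.0056) and remained called without *Xbp1* LKO library 2. *Glns-ps1*, a processed pseudogene of glutamine synthetase that may share reads with *Glul*, was at 0.110, 0 and 0.0996 CPM and 1.75 and 1.88 CPM (edgeR adjusted p = 0.0025).

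*Ufm1* encodes a ubiquitin-like modifier that acts at the ER on ribosomes, and *Ufc1*, *Ufl1* and *Cdk5rap3* serve its attachment. *Cdk5rap3* was at 98.1, 88.1 and 89.9 CPM and 44.8 and 45.1 CPM (log2 fold change -1.03, SE 0.13, edgeR adjusted p = 0.0035) and *Ufl1* at 38.2, 37.5 and 52.0 CPM and 23.9 and 21.3 CPM (log2 fold change -0.91, SE 0.17, edgeR adjusted p = 0.013). *Ufc1* (log2 fold change -0.58, SE 0.12, edgeR adjusted p = 0.018) and *Ufm1* (log2 fold change -0.39, SE 0.10, edgeR adjusted p = 0.042) were called lower too, and the groups overlapped in none of the 4. With library totals they did overlap in *Ufm1*, at 37.92, 36.07 and 38.28 CPM in *Xbp1* fl/fl and 35.51 and 36.11 CPM in *Xbp1* LKO hepatocytes. The nucleolar genes *Nolc1* (26.5, 23.1 and 27.5 CPM and 38.1 and 46.8 CPM, log2 fold change 0.73, SE 0.12, edgeR adjusted p = 0.0077), *Rrs1* (log2 fold change 0.67, SE 0.11, edgeR adjusted p = 0.0087), *Nop2* (log2 fold change 0.60, SE 0.11, edgeR adjusted p = 0.013) and *Polr1a*, the largest subunit of RNA polymerase I (log2 fold change 0.56, SE 0.11, edgeR adjusted p = 0.017), were called higher on chow, and their log2 fold changes on the HFS diet were 0.16, 0.33, 0.08 and 0.16, with an interaction that did not pass the threshold in any of them.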
